A study of Saccharomyces cerevisiae with 10 samples.

Results

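In budding yeast whose origin recognition complex (ORC) lacked the insertion helix of its Orc4 subunit (Orc4-IHΔ), 1061 ORC peaks stood alone on a stretch of open chromatin and had no counterpart in the wild-type (WT) peak list. The members were chosen by presence and absence in the peak lists. Each is an Orc4-IHΔ ORC ChIP-seq peak that overlaps no line of the WT ORC list, overlaps an open region by at least 1 bp, and is the only Orc4-IHΔ peak on every open region it overlaps. Lines with the same peak name were first joined from the first start to the last end, which gave 2140 joined Orc4-IHΔ peaks. The 1061 members are 49.6% of these (95% Wilson interval 47.5% to 51.7%). Open regions are the 2716 intervals obtained when the ATAC-seq peaks of both strains were merged wherever they overlapped or touched.

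ORC is a complex of Orc1 to Orc6 that marks the places where replication can begin and recruits the loader of the MCM helicase. In budding yeast it recognises a T-rich consensus within short replication origins, and the insertion helix of Orc4 reaches into the major groove of that DNA. The human Orc4 protein has no such helix, and human ORC shows little sequence preference. ATAC-seq reads out where the transposase Tn5 can cut DNA, so its peaks mark nucleosome-poor, accessible stretches of the genome, many of which are promoters in yeast.

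The Orc4-IHΔ cells (strain CL_MUT_O6_MYC) carried orc4-IH_delta integrated at ura3-1, and the WT cells (strain CL_WT_O6_MYC) carried ORC4 at the same place. Both transgenes were driven by the native ORC4 promoter. Both strains were MATa cells of the W303-1a background with that background's can1-100 allele and its auxotrophic alleles of TRP1, LEU2, HIS3 and ADE2, with a GALS promoter in front of the endogenous ORC4 gene (GALS-ORC4-kanMX4) and with a Myc tag on Orc6 (ORC6-MYC-hphNT1). The endogenous ORC4 gene was shut off in glucose medium at 30 °C over 18 h or more, and cells were then arrested in G2/M with the microtubule drug benomyl at 20 µg/ml for about 3 h. ORC was recovered with an antibody to the Myc tag. One ORC list per strain was used, in which 2 libraries are already combined, and 1 ATAC-seq list per strain, so there is no replicate spread and no test of any difference was possible. Peaks are not replicates of a condition: every interval given here covers counting error over peaks or regions only.

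The ORC lists held 2219 lines for Orc4-IHΔ and 618 lines for WT. The ATAC-seq lists held 2457 peaks in the list labelled Orc4-IHΔ and 2480 in the list labelled WT. For ATAC-seq, a list's name and its sample label name opposite strains, so both lists are called here by the label and any direction between them is uncertain. The peak numbers that the study gives per strain go with the list names and against the labels. The merged regions, and so the choice of members, do not depend on which list is which. The depth of sequencing is unknown from the lists. An interval missing from the WT ORC list is therefore not shown to be unbound in WT cells.

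Of all joined Orc4-IHΔ peaks, 1837 of 2140 overlapped no WT line (85.8%) and 1488 overlapped an open region (69.5%). Both shares were used to choose the members and nothing is read from them. Among the 1837 peaks without a WT overlap, 1309 lay on an open region (71.3%, 69.1% to 73.3%), 1061 of them alone and 248 with another Orc4-IHΔ peak on the same region. The other 528 lay outside every open region. Of the joined peaks that did overlap a WT line, 129 stood alone on a region, and these shared peaks are the class most like the members. Of the members, 1017 were single lines and 44 were joined from several lines. Since 8 members overlapped a pair of regions, the 1061 members occupied 1069 of the 2716 regions (39.4%, 37.5% to 41.2%), while 1363 regions held no Orc4-IHΔ peak.

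The midpoint of most members lay nearer the centre of their open region than its edge. The position of a member was measured from the midpoint of its joined peak to the centre of its region, and expressed in percent of the distance from centre to edge, so that 0% is the centre and 100% the edge. The median over the 1061 members was 25.6% (quartiles 11.5% and 45.1%, 95% interval of the median 23.6% to 27.7%). The midpoint lay less than 50% of the way to the edge in 846 members (79.7%, 77.2% to 82.0%). It lay inside the region in 1036 members (97.6%, 96.5% to 98.4%) and beyond the edge in 25. From centre to edge in steps of 25%, the successive steps held 521, 325, 141 and 48 members. The number of members per step thus fell outward from the centre. A peak wholly inside its region keeps its midpoint away from the edge, and the more so the wider it is. Members covered a median of 56.2% of their region. The part of peak width in the position of members was not tested.

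In base pairs, the median distance of the midpoint from the region centre was 68 bp (quartiles 28 and 133.5 bp), and 445 members (41.9%) lay within 50 bp of the centre. Members did not favour a side: 539 lay to the left of the centre and 521 to the right on the coordinate axis, and the signed median was −1.5 bp (95% interval −6.5 to 5.5 bp). Left and right here follow chromosome coordinates and not the direction of any gene, since gene positions were not analysed here. The nearer edge of the region was a median of 187 bp away (quartiles 100 and 329.5 bp).

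**Figure D1:**
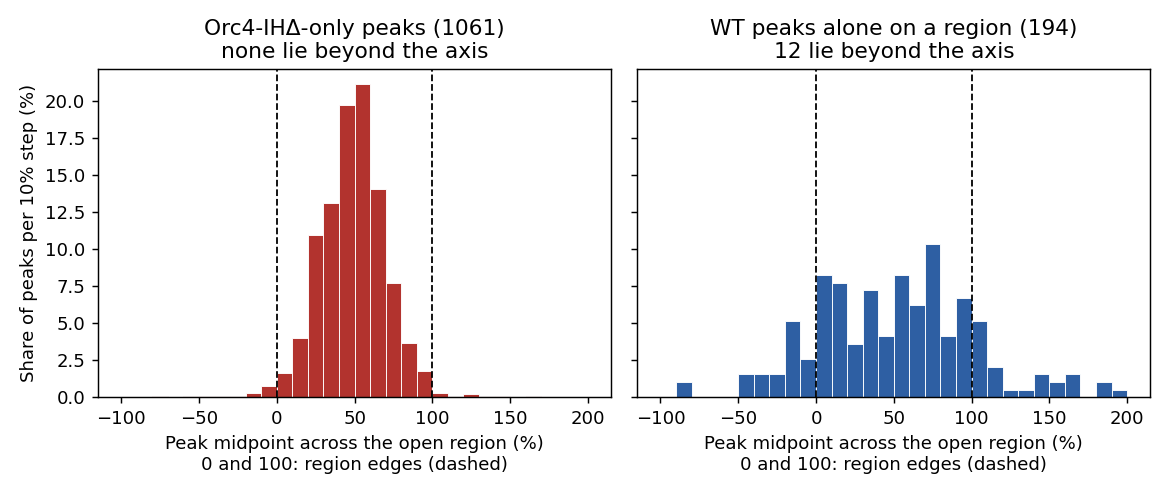
Share of peaks (%) by the position of the peak midpoint across its open region, in steps of 10% of the region, with region edges at 0 and 100 (dashed). Left, the 1061 Orc4-IHΔ-only peaks, of which 97.6% lie between the edges. Right, the 194 WT peaks that stand alone on a region, of which 66.5% lie between the edges and 12 lie beyond the axis.

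The peaks were usually contained in the open region. The whole joined peak lay inside the region in 657 members (61.9%, 59.0% to 64.8%), crossed a single edge in 327 (30.8%) and spanned the region from edge to edge in 77 (7.26%). The median member had 100% of its bases inside the region (quartiles 90.5% and 100%) and covered 56.2% of the region (quartiles 36.5% and 80.9%). Member peaks had a median width of 267 bp (quartiles 199 and 435 bp, range 65 to 1890 bp). Their regions had a median width of 579 bp (quartiles 326 and 901 bp, range 150 to 2446 bp).

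Members also lay close to the point of highest accessibility. The summit that the authors' peak caller gave for the highest ATAC-seq peak of the region was inside the joined ORC peak in 912 of the 1061 members (86.0%, 83.7% to 87.9%). The median distance from peak midpoint to summit was 53 bp (quartiles 24.5 and 121 bp, 95% interval 48 to 59 bp), and 745 members (70.2%) lay within 100 bp of it. Taken from each list alone, the median distance was 58.8 bp from the summit in the list labelled Orc4-IHΔ (998 members) and 57 bp from that in the list labelled WT (1010 members). The summits of both lists were a median of 6 bp apart in the 947 member regions called in both. A peak that covers much of its region will often hold the summit, and members covered a median of 56.2% of theirs. The part of peak width in these values was not tested.

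The centre and the summit are not the same point, and the members leaned towards the summit. The summit itself lay a median of 56.5 bp from the centre of a member region (quartiles 22 and 116 bp). That distance was 51.5 bp over all 2716 regions and 41.5 bp over the 1363 regions without an Orc4-IHΔ peak. In 425 members both the summit and the ORC midpoint were 50 bp or more from the centre, and in 315 of these both were on the same side of it (74.1%, 69.8% to 78.1%). One such case was the member on chromosome III at 50315 to 50725. Its region was one of the 3 widest (2262 bp), its midpoint lay 874.5 bp from the centre, or 77.3% of the way to the edge, and 172.5 bp from the summit. The widest member region, 2446 bp on chromosome VII, carried its member at 914834 to 915149, 708 bp from the centre and 59 bp from the summit.

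Shared peaks that stood alone on a region had a similar median position but lay farther from the summit. Their midpoints were a median of 90 bp from it (95% interval 73 to 124.5 bp), against 53 bp (48 to 59 bp) for members. The midpoint was inside the region in 118 of 129 shared peaks (91.5%, 85.4% to 95.2%), against 97.6% (96.5% to 98.4%) of members. The 129 shared peaks had a median position of 31.5% (95% interval 20.9% to 38.0%), which overlaps the interval of the members (23.6% to 27.7%). Less than 50% of the way to the edge lay 846 of 1061 members (79.7%, 77.2% to 82.0%) and 91 of 129 shared peaks (70.5%, 62.2% to 77.7%). The summit was inside the peak in 86.0% of members and in 108 of 129 shared peaks (83.7%, 76.4% to 89.1%). Members were more often wholly inside the region, 61.9% against 40.3% of shared peaks (32.2% to 48.9%). Median peak widths were 267 bp for members and 384 bp for shared peaks, on regions with medians of 579 and 615 bp. The part of peak width in the differences between members and shared peaks was not tested.

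The 248 Orc4-IHΔ-only peaks that shared their region with another Orc4-IHΔ peak lay farther out. Members had a median position of 25.6% and these peaks of 57.0%. The summit lay inside the peak in 86.0% of members and in 95 of these 248 peaks (38.3%), at a median distance of 53 bp for members and 299 bp for the others. Several peaks cannot all hold the centre of 1 region, and the regions differed in width, with a median of 579 bp for members and 1327 bp for peaks with company. Peaks on 1 region are not independent of each other, so no interval is given for them, and the part of region width in these differences was not tested.

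WT peaks alone on an open region were placed differently. Of the 587 joined WT peaks, 194 were the only WT peak on every region they overlapped. These were taken whether or not an Orc4-IHΔ peak overlapped them, whereas members overlap no WT line, so the sets were chosen by unlike rules. By the same measure of position, the median of these WT peaks was 76.9% (95% interval 65.0% to 90.3%), against 25.6% for members. The midpoint was inside the region in 97.6% of members and in 129 of the 194 WT peaks (66.5%, 59.6% to 72.8%). It lay less than 50% of the way to the edge in 79.7% of members and in 66 of the WT peaks (34.0%, 27.7% to 40.9%). The summit was inside the peak in 86.0% of members and 57.7% of WT peaks (50.7% to 64.5%), and the median distance to it was 53 bp for members and 287 bp for WT peaks. WT peaks crossed an edge more often, 30.8% for members against 58.8% for WT peaks, and fewer were wholly inside, 61.9% against 28.9%.

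The regions of both sets were of like width, with medians of 579 bp for members (95% interval 549 to 613 bp) and 671.5 bp for WT peaks (571 to 817 bp), while the peaks were not, with medians of 267 bp and 531.5 bp. A wider peak can overlap a region while its midpoint lies farther out. The part of peak width in the differences of position was not tested. On the regions of the 129 shared peaks, the Orc4-IHΔ peak had a median position of 31.5% and the WT peak that it met one of 82.8%. These regions were chosen through the Orc4-IHΔ peak, which had to overlap them, whereas the WT peak only had to meet that peak, so the values are not an even comparison of the strains. As each strain has 1 combined list, no test between strains was made.

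The distance in base pairs varied with the width of the region, and the relative position varied less. Regions were put into 6 width groups, chosen after the values were seen. Among the 170 members on regions of 150 to 249 bp, the median distance from the centre was 30.75 bp and the median position 29.8%. Among the 244 on regions of 600 to 899 bp, these were 92 bp and 24.3%. Among the 68 on regions of 1300 to 3259 bp, they were 169.5 bp and 21.6%. Over all 6 groups the median position of members stayed between 21.6% and 29.8%, and that of WT peaks between 59.2% and 147%, with 28 to 39 WT peaks per group. In each width group the members' median was below that of the WT peaks. Peak width was not held equal in these groups.

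**Figure D2:**
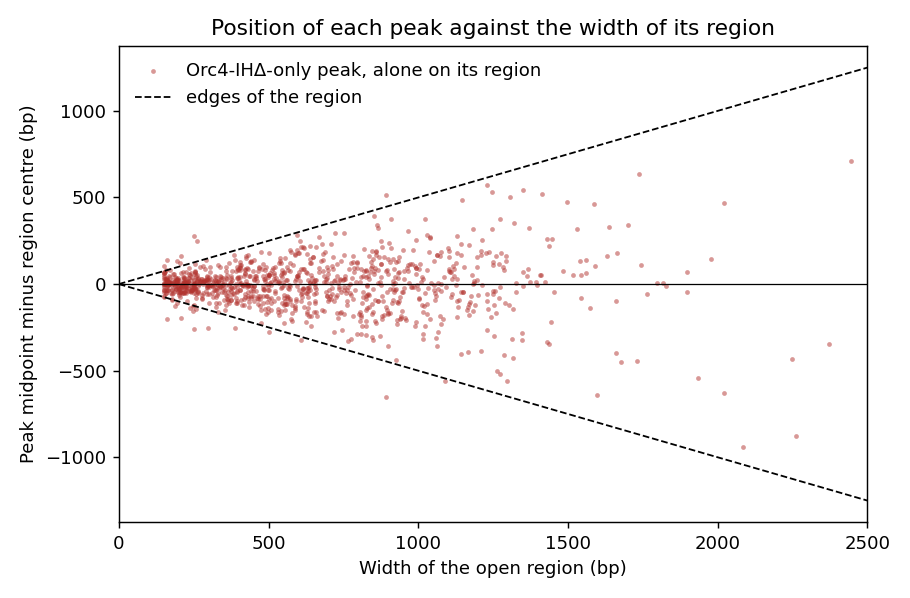
Distance of each peak midpoint from the centre of its open region (bp, positive to the right) against the width of that region (bp) for the 1061 Orc4-IHΔ-only peaks. Dashed lines mark the edges of the region. Points spread with width around 0, with a median distance of 30.75 bp at widths of 150 to 249 bp and of 169.5 bp at 1300 bp or more, and 25 midpoints lie outside the edges.

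On the narrowest regions, peak and region were nearly the same size. At 150 to 249 bp the member peaks had a median width of 208.5 bp, and 10.6% of them lay wholly inside the region. That share was 49.2%, 66.7%, 78.7%, 83.8% and 85.3% in the groups of rising width. Leaning towards the summit was seen in each group of 250 bp or wider: at 250 to 399 bp 27 of 36 members with both points 50 bp or more from the centre lay on the summit's side of it, at 400 to 599 bp 78 of 99, at 600 to 899 bp 85 of 115, at 900 to 1299 bp 85 of 121, and at 1300 bp or more 36 of 49.

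The share of regions that carried a member also varied with their width. A member was present on 173 of the 677 regions of 150 to 249 bp (25.6%, 22.4% to 29.0%). The share was 36.8% at 250 to 399 bp and 37.1% at 400 to 599 bp, then 50.2% (45.8% to 54.6%) at 600 to 899 bp and 61.1% (55.7% to 66.3%) at 900 to 1299 bp. On the 185 widest regions it was 36.8% (30.1% to 43.9%), where 73 regions (39.5%) carried several Orc4-IHΔ peaks and so could hold no member. Regions without an Orc4-IHΔ peak made up 70.3%, 57.9%, 58.0%, 38.5%, 20.7% and 15.1% of the 6 groups from narrow to wide. Wider regions have more bases in which a peak can fall, and this was not corrected for.

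**Figure D3:**
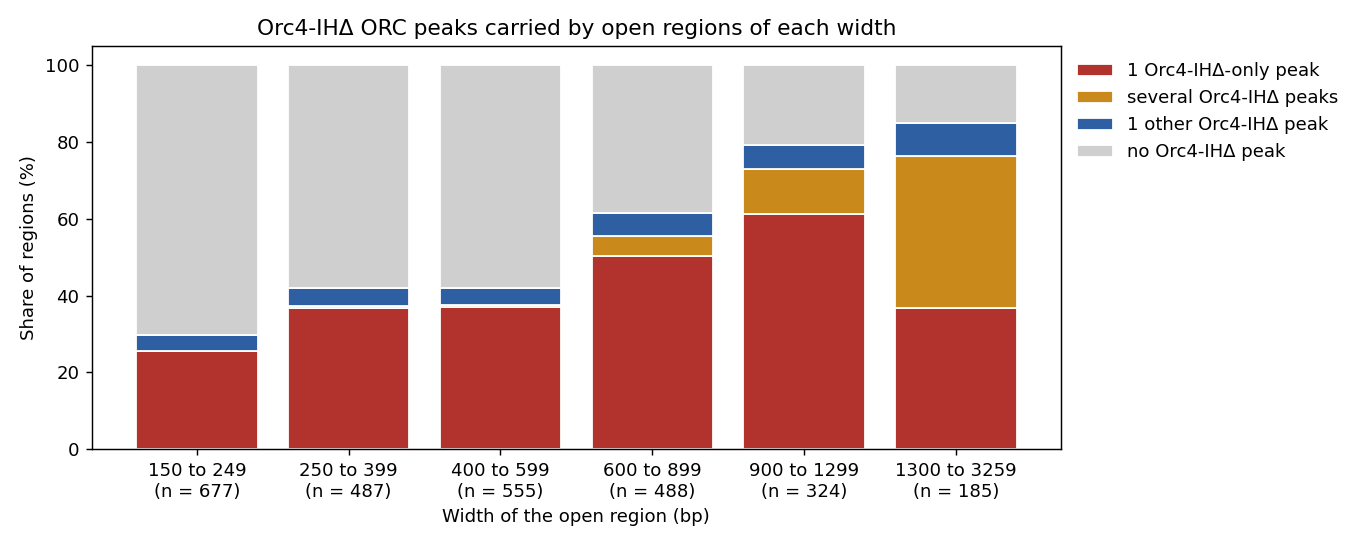
Share of open regions (%) in each of 6 width groups (bp, number of regions under each bar) that carry 1 Orc4-IHΔ-only peak, several Orc4-IHΔ peaks, 1 other Orc4-IHΔ peak (shared with WT, or reaching a region with several peaks), or no Orc4-IHΔ peak. The share with 1 Orc4-IHΔ-only peak is 25.6% in the narrowest group, 61.1% at 900 to 1299 bp and 36.8% in the widest, where 39.5% carry several peaks.

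Member regions were more accessible than regions without an Orc4-IHΔ peak. Accessibility is given as the fold enrichment of the ATAC-seq peak over its background, as the authors' peak caller wrote it, with the highest peak taken for each merged region. The median was 3.94 for the member regions (quartiles 2.70 and 6.54, 95% interval 3.75 to 4.17), against 2.68 (2.61 to 2.77) for the 1363 regions without an Orc4-IHΔ peak and 3.20 (3.11 to 3.31) for all 2716 regions. In the list labelled Orc4-IHΔ alone, the medians were 3.85 for member regions and 2.68 for regions without a peak. In the list labelled WT alone, they were 3.72 and 2.68. The order was the same in both lists. Region width moved with this, at a median of 579 bp for member regions and 362 bp for those without a peak, and its part in the difference was not tested. Counted once per peak, so that a region with several peaks is counted more than once, the regions of the 248 peaks with company had a median fold of 6.72. Those of the 129 shared peaks had a median fold of 3.56 (3.24 to 4.23), which overlaps the interval for member regions.

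**Figure D4:**
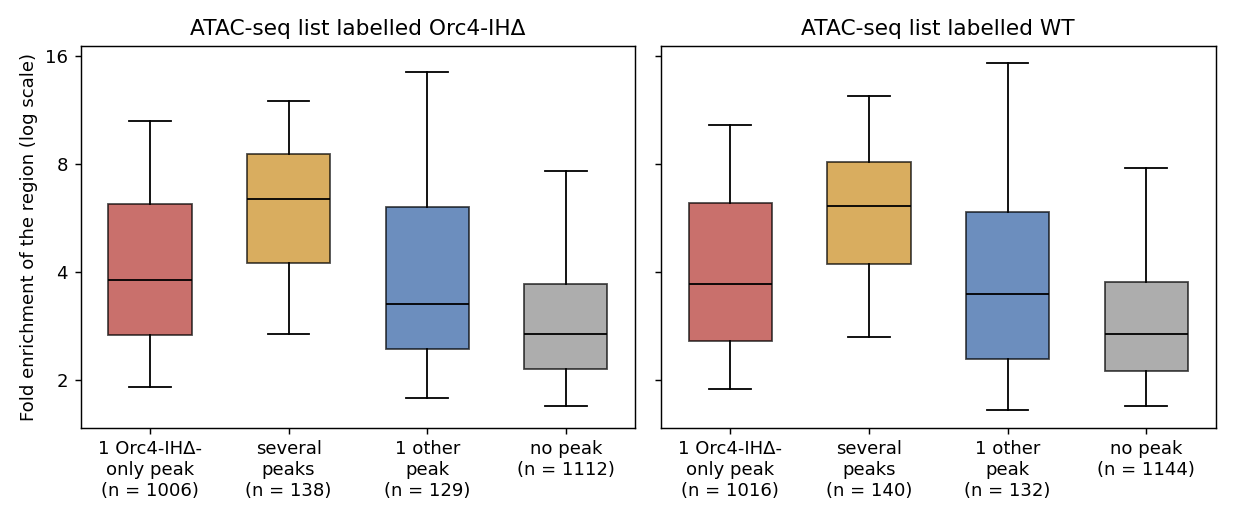
ATAC-seq fold enrichment of open regions (log scale) in the list labelled Orc4-IHΔ (left) and the list labelled WT (right), by what the region carried in the Orc4-IHΔ ORC list, where 1 other peak means one shared with WT or one that reaches a region with several peaks. Boxes show the quartiles and the median, whiskers the 5th and 95th percentiles. In both lists regions with 1 Orc4-IHΔ-only peak lie above regions with no peak and below regions with several peaks.

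Most members lay on regions that were open in both ATAC-seq lists. Both lists called the region of 947 of the 1061 members (89.3%, 87.2% to 91.0%), against 77.4% of all merged regions and 893 of the 1363 regions without an Orc4-IHΔ peak (65.5%, 63.0% to 68.0%). The region was called only in the list labelled Orc4-IHΔ for 51 members and only in the list labelled WT for 63. The share was 97.6% for peaks with company, again counted per peak, and 84.5% for shared peaks. When members were split into 5 groups by the ATAC-seq fold of the region, it was 53.5% in the lowest and 100% in the highest. The part of region fold and width in the differences between sets was not tested. The 114 members on regions of a single list sat on narrow, weakly accessible regions, with a median width of 194.5 bp and a median fold of 2.09. Their ORC fold enrichment had a median of 2.92 (2.69 to 3.36), against 3.28 (3.21 to 3.37) for the 947 members on regions of both lists.

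Where both lists called a member region, the fold enrichments were close. The median log2 ratio of the list labelled Orc4-IHΔ over the list labelled WT was 0.02 (quartiles −0.14 and 0.20, range −1.21 to 1.35), and it was 0.02 over all 2101 regions called in both. Only 6 of the 947 member regions (0.634%, 0.291% to 1.38%) differed over 2-fold between the lists, against 1.09% of all regions called in both. The region of the member on chromosome II at 533395 to 533560 had folds of 4.55 in the list labelled Orc4-IHΔ and 1.78 in the list labelled WT. That of the member on chromosome IV at 1269674 to 1269982 had 4.52 and 2.25 in the same order. The other 4, on chromosomes II, IX, XI and XV, were higher in the list labelled WT, for example 2.80 in the list labelled Orc4-IHΔ and 5.79 in the list labelled WT for the member on chromosome XI at 490620 to 490837. These 6 were singled out by their values, and without replicates of the ATAC-seq lists it is unknown how often such ratios occur between libraries of 1 strain.

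The ORC peaks of the members were of middle strength for the Orc4-IHΔ list. Their fold enrichment over background, again as written by the authors' peak caller, had a median of 3.27 (quartiles 2.61 and 4.02, 95% interval 3.20 to 3.36, range 1.43 to 8.14), against 3.12 over all 2140 joined Orc4-IHΔ peaks. Their −log10 q value, the caller's measure of how unlikely a peak is under its background model, had a median of 15.9 (range 1.32 to 92.2). Orc4-IHΔ-only peaks outside every open region were weaker and narrower, with a median fold of 2.83 (2.75 to 2.93), a median −log10 q of 10.7 and a median width of 195.5 bp, against 267 bp for members. Peaks with company on their region had a median fold of 3.03 and the shared peaks alone on a region one of 3.76 (3.33 to 4.14). The rule sorts peaks by whether the WT list called them, and strength and that sorting cannot be told apart in this last difference.

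**Figure D5:**
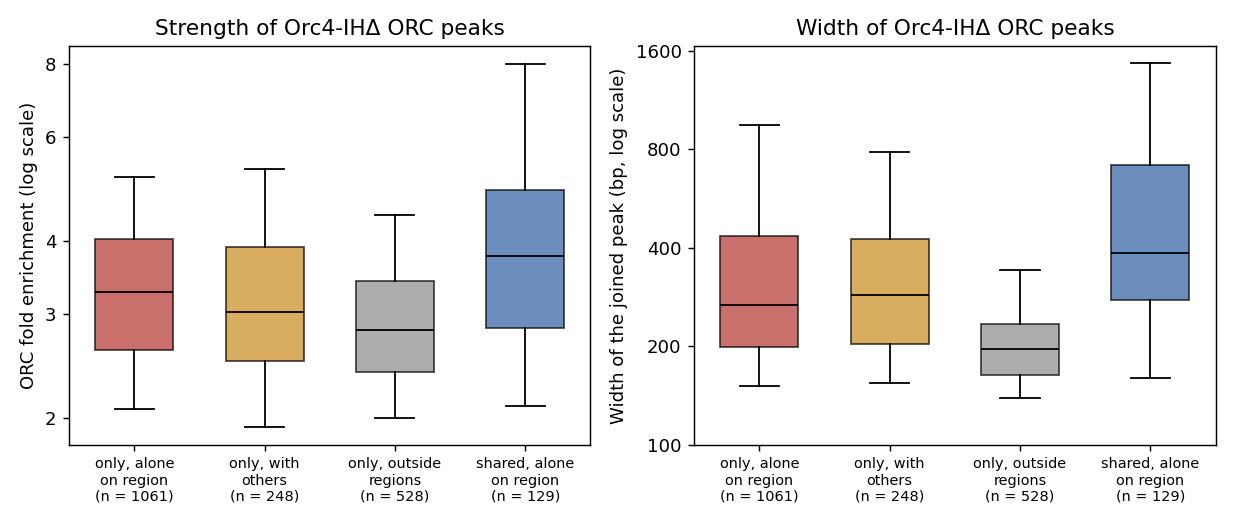
ORC fold enrichment (left, log scale) and width in bp (right, log scale) of 4 classes of joined Orc4-IHΔ peaks. Boxes show the quartiles and the median, whiskers the 5th and 95th percentiles. Orc4-IHΔ-only peaks alone on a region have a median fold of 3.27, against 3.03 with others on the region, 2.83 outside regions and 3.76 for peaks shared with WT.

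Stronger members lay on wider and more accessible regions, nearer the centre relative to region width but not nearer the summit. When the members were split into 4 groups of nearly equal size by ORC fold enrichment, the median position was 35.2% in the weakest, then 27.2%, 21.7% and 21.2% in the strongest. The median distance from the ATAC-seq summit in base pairs was 44.75, 48.5, 48 and 69 bp in the same order, farthest in the strongest. The median ATAC-seq fold of their regions was 3.37, 3.64, 3.85 and 5.06 in the same order, and the median region width 508, 503, 588 and 782 bp, so that the relative position is taken over wider regions in the strongest group. The joined peaks themselves widened over these groups, with medians of 191, 232, 294 and 454 bp. A wider peak inside its region has less room away from the centre. The part of peak and region width in the relative position was not tested. Split into 5 groups by the ATAC-seq fold of the region, the members had median ORC folds of 2.98, 3.15, 3.20, 3.49 and 3.69, while the accessibility medians ran from 2.14 to 9.12.

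Across the 1061 members, ORC fold and ATAC-seq fold had a Pearson correlation of 0.195 on the log2 scale and a Spearman correlation of 0.201. ORC fold and peak width had correlations of 0.567 and 0.596, and peak width and region width of 0.511 and 0.493. These describe peaks of 1 ORC list, which share their libraries and their caller, and peaks are not independent replicates.

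The 8 strongest members show how varied the placement was. The highest fold, 8.14, belonged to the member on chromosome II at 798817 to 799238, whose midpoint was 100 bp from the centre of a 560 bp region and 23 bp from its summit. The region had ATAC-seq folds of 3.87 in the list labelled Orc4-IHΔ and 4.28 in the list labelled WT. Second was the peak on chromosome V at 284467 to 285088 (fold 7.49), which lay wholly inside an 807 bp region, 14.5 bp from its centre, with ATAC-seq folds of 6.96 and 7.10 in the same order. On chromosome IV, the member at 591494 to 592517 (fold 7.25) spanned an 873 bp region and was centred on it to within 9.5 bp. These 3 regions were accessible in both lists, and their peaks lay within 55 bp of the summit.

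The next 5 lay between 71.5 and 874.5 bp from the centre of their region. On chromosome XII, the member at 722650 to 723743 (fold 7.25) lay 132.5 bp from the centre of a 1541 bp region and 316 bp from its summit. That on chromosome III at 50315 to 50725, described above, had a fold of 7.03. On chromosome XI, the member at 245181 to 245974 (fold 6.89) lay 36 bp from the summit of a region whose ATAC-seq folds were 2.15 in the list labelled Orc4-IHΔ and 4.09 in the list labelled WT. The remaining pair, on chromosome X at 607207 to 608200 (fold 6.86) and chromosome VII at 1051862 to 1052609 (fold 6.80), lay 190 and 71.5 bp from the centre. High ORC fold was thus found on regions with ATAC-seq folds from 2.15 to 8.25 in the list labelled Orc4-IHΔ.

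The 5 members on the most accessible regions had ORC folds from 2.59 to 4.14, against a median of 3.27 over all members. The highest ATAC-seq fold of a member region was on chromosome IV, 14.2 in the list labelled Orc4-IHΔ and 15.6 in the list labelled WT, and its member at 636216 to 637055 had an ORC fold of 4.14 and lay 373 bp from the centre. The member on chromosome V at 490919 to 492228 (ORC fold 3.59, region folds 15.3 and 12.8 in the same order) lay 13 bp from the centre of its 1828 bp region. The next 3, on chromosomes IV (1429062 to 1429302), XV (866687 to 866953) and XIII (408502 to 408927), had ORC folds of 3.42, 2.59 and 3.76 and lay 159.5, 28 and 256 bp from the centre. All 5 were below the ORC fold of the 8 strongest members, which says little, as those are only 8 of 1061. When members were split into 5 groups by ATAC-seq fold, the most accessible group had the highest median ORC fold, 3.69.

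The 3 widest member peaks filled wide regions almost exactly. The peak on chromosome XIV at 300749 to 302638 was 1890 bp wide, spanned a region of 1816 bp and was centred on it to within 4 bp. The peak on chromosome XI at 229539 to 231417 was 1879 bp wide on a region of 1765 bp, and that on chromosome VIII at 16646 to 18520 was 1875 bp wide on a region of 1898 bp. Their ORC folds were 3.94, 4.48 and 4.32. By contrast, the member on chromosome XII at 1012005 to 1012222 was a peak of 218 bp on a region of 2372 bp, 344 bp from its centre.

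At the other end, the 3 members with the lowest ORC fold lay on narrow, weakly accessible regions. They do not stand for weak members in general. The weakest group by ORC fold, described above, had a median region width of 508 bp and a median ATAC-seq fold of 3.37. The lowest ORC fold, 1.43, was that of a member on the 2-micron plasmid. The member on chromosome XIII at 445253 to 445411 had a fold of 1.47 and lay 12 bp from the centre of a 219 bp region with ATAC-seq folds of 2.24 in the list labelled Orc4-IHΔ and 2.12 in the list labelled WT. The member on chromosome XII at 721533 to 721678 (fold 1.67) lay 52 bp from the centre of a 182 bp region with folds of 2.06 and 2.37 in the same order. The 3 members closest to their region's centre, 0 to 0.5 bp away, were on chromosomes XI (38403 to 38731), XIV (68464 to 68644) and X (471729 to 472051), with ORC folds of 3.88, 3.56 and 2.92.

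Few members were near the limit of the rule. Only 6 of the 1061 overlapped their region by less than 50 bp. Just inside was the member on chromosome V at 484366 to 484607, which met its region at 1 bp and had an ORC fold of 3.03, followed by chromosome XII at 447672 to 448120 (18 bp, fold 3.08) and chromosome IV at 19324 to 19503 (30 bp, fold 2.33). Just outside were Orc4-IHΔ-only peaks on chromosome XV at 976733 to 976939, 38 bp from the nearest region (fold 4.64), on chromosome VIII at 344113 to 344293 (42 bp, fold 2.65) and on chromosome IX at 212011 to 212197 (51 bp, fold 3.41). Of the 528 Orc4-IHΔ-only peaks outside regions, 12 were within 100 bp of one and the median gap was 1584 bp. The members whose midpoints lay farthest beyond an edge were on chromosome XII at 447672 to 448120 (206.5 bp) and 377381 to 378015 (155.5 bp) and on chromosome XV at 86779 to 87483 (134.5 bp), with ORC folds of 3.08, 4.79 and 5.60.

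Distances from members to WT peaks are given as a description only. The rule takes out every peak that touches a WT line. No distances of other peaks or regions were set beside them, so closeness to WT peaks is not judged. The nearest WT line was a median of 6499 bp away (quartiles 2379 and 14054 bp, range 18 to 59023 bp), and 143 members (13.5%, 11.6% to 15.7%) had one within 1000 bp. The next joined Orc4-IHΔ peak was nearer, a median of 1985 bp away, and 265 members (25.0%, 22.5% to 27.7%) had one within 1000 bp. The Orc4-IHΔ list holds over 3 times as many names as the WT list, so these distances are not set against each other. The members nearest to a WT line were on chromosome VI at 19665 to 19928 (18 bp, ORC fold 3.57), chromosome XIII at 433536 to 434658 (20 bp, fold 4.95) and chromosome II at 408384 to 408971 (44 bp, fold 3.98).

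On 9 of the 1069 member regions a WT line lay elsewhere on the same region (0.842%), against a WT line on 8.51% of all merged regions. The rule takes out every peak that touches a WT line, so nothing is read from that difference. On these 9 regions there were 10 WT lines, 20 to 551 bp from the member, with WT folds of 1.74 to 7.73, and the members had folds of 2.24 to 6.58. On chromosome II the member at 255878 to 256224 (fold 6.58) lay between a pair of WT lines at 254903 to 255620 (fold 3.93) and 256398 to 256736 (fold 2.00), which reached only 33 and 22 bp into the region from its edges, while the member's midpoint was 11.4% of the way from centre to edge. On chromosome V the member at 211587 to 211687 (fold 2.24) was 551 bp from a WT line at 212239 to 212969 (fold 5.62) that held 374 bp of the same 1144 bp region. On chromosome IV the member at 628569 to 628851 (fold 5.07) was 129 bp from a WT line at 628981 to 629680 (fold 7.73). Folds of the 2 ORC lists were computed separately and are not compared in size.

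Members were found on all 16 chromosomes. Their density ran from 6.30 per 100 kb on chromosome XI to 11.2 per 100 kb on chromosome V, with the largest listed peak end taken as the length of a chromosome. The share of open regions with a member was lowest on chromosome XI, 29.3% (22.5% to 37.1%), and highest on chromosome XV, 48.6% (42.5% to 54.8%). These extremes of the 16 chromosomes were picked by their values, and no difference between chromosomes is read from them. The median position of members per chromosome lay between 19.7% on chromosome IV and 39.6% on chromosome III, where 27 members were counted. Within 10 kb of a chromosome end lay 15 of 1059 chromosomal members (1.42%, 0.860% to 2.32%). The same share over all open regions or all joined peaks is not given here, so nothing is read from this count.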

How the data were processed

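Peak lists of 2 assays were used, ORC ChIP-seq and G2/M ATAC-seq, 1 list per strain and assay and 4 in all. The MCM, BrdU and MNase samples were not analysed here. The submitters' processing notes name Bowtie 1.2.2, Bowtie2 2.3.4.1, Picard, SAMtools 1.3.1, bedtools 2.27.1, MACS2 2.1.1.20160309 and the build sacCer2, with no role given. The list names read as ORC peaks common to the libraries with RNA genes left out, and as ATAC-seq cut sites of unique, deduplicated, non-mitochondrial pairs, extended to 150 bp. An open region at such a gene would then carry no ORC peak in the lists. The smallest merged region, 150 bp, equals that extension. Fold enrichment (a linear ratio of a peak to its local background) and −log10 p-value and −log10 q-value are deposited values from the authors' peak caller. The p-values only set the authors' calls.

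Coordinates are 1-based, in the build of the lists. Genes, origins, motifs and sequence were not analysed here, since they need positions in that build. A joined peak carries the highest fold of its lines, and a merged region the highest fold and the summit of its highest peak. Listed ORC summits were not used, and midpoints were taken instead. A member on a pair of regions was placed on the one sharing more bases with it. Shares have 95% Wilson intervals, and medians have 95% intervals from binomial order statistics. With 1 list per strain no p-values were computed. The overlap and position code was tested on simulated data. The members and lists were chosen with earlier results of these data known. Peaks named are extremes of ORC fold, ATAC-seq fold, peak or region width, overlap, distance to a WT line and distance from the centre, and others named were singled out by their values. Alternatives changed the overlap, merging, ATAC-seq list, thresholds, joining and chromosome ends. The work was done in Python 3.11.15 with scipy 1.17.1, numpy 2.4.6, matplotlib 3.10.9 and pandas 2.3.3.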

Additional observations from a re-analysis of the deposited data

How the results depend on the processing

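The values of 6 results on the members (their number, position, ORC fold, ATAC-seq fold, share in both lists and WT lines nearby) were recomputed under other choices, which gave 57 values, of which 46 stayed within the error of the value reported and 11 moved beyond it. Among the 46 are values from asking for an ATAC-seq −log10 q of at least 2, which changed none of them and so adds little. The comparisons with WT, shared, with-company and no-peak sets, the width groups, the summit side and the correlations were not recomputed. Keeping only joined ORC peaks at or above the median fold left 645 members (1061 with all peaks), with a median position of 22.5% (25.6%), an ORC fold of 3.92 (3.27), an ATAC-seq fold of 4.52 (3.94) and 91.6% of regions in both lists (89.3%). Here a higher ORC fold follows from the choice itself. The ATAC-seq fold of member regions was 3.69 with only the list labelled WT, 4.39 with only regions of both lists and 3.55 with the mean over merged peaks. A WT line lay within 500 bp of 6.60% and within 2000 bp of 22.7% of members (13.5% within 1000 bp). Measured from the ATAC-seq summit, the median position was 22.3%. This alternative was chosen after seeing the data, as were regions of 400 bp or wider, leaving out the 2-micron plasmid and single-line peaks only. No paired analysis was possible because each strain has 1 combined ORC list and 1 ATAC-seq list. Leaving out a library was not possible for the same reason. Read depth is unknown, and its part in a missing WT peak was not tested.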

Other observations

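The 8 members that overlapped a pair of open regions bridged gaps of 74 to 177 bp between them, with ORC folds of 2.42 to 5.60. The strongest, on chromosome III at 78085 to 79129 (fold 5.60), crossed an 87 bp gap between a region of 1349 bp with an ATAC-seq fold of 10.8 and one of 467 bp with a fold of 3.37. The weakest, on chromosome IX at 26799 to 27240 (fold 2.42), crossed a gap of 74 bp between regions with folds of 2.33 and 2.14. On chromosome XI the member at 259344 to 260941 (fold 4.19, joined from 3 lines) crossed a gap of 93 bp between regions with folds of 1.66 and 7.32.

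A pair of members lay on the 2-micron plasmid, a multicopy element. The one at 8 to 170 had an ORC fold of 1.69 and a region with ATAC-seq folds of 2.50 in the list labelled Orc4-IHΔ and 2.19 in the list labelled WT. The one at 3077 to 3226 had an ORC fold of 1.43 and region folds of 2.39 and 2.17 in the same order. Both lay inside their region, 45.5 and 30.5 bp from its centre, and both ORC folds were below the lower quartile of all members, 2.61.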
